A study of Mus musculus with 4 samples.

Results

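Genes that build, equip, import into and reshape mitochondria are described here in cultures of forming mouse osteoclasts treated with BMS-582949, a compound that blocks the kinase p38α. The members are 42 named genes: regulators of mitochondrial biogenesis, factors that maintain and transcribe mitochondrial DNA, protein translocases, chaperones, fusion and fission proteins, cristae proteins, porins and nucleotide carriers. They were matched by symbol to the Ensembl identifiers of a raw count table of 23390 gene models, and those with 40 or more counts summed over the 4 libraries were kept. Of the 42 genes, 41 were kept, and all 41 also passed the low-count filter of the test. The remaining gene, Ppargc1a, had no count in any library.

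RNA was sequenced from 2 libraries treated with 10 µM BMS-582949 and 2 libraries given the solvent DMSO. All cells were bone marrow-derived macrophages of wild-type C57BL/6J mice, grown with L929 conditioned medium as the source of M-CSF and driven towards osteoclasts with 40 ng/ml RANKL until RNA was taken at day 4. The labels differ on whether the compound was present for 3 or 4 days, their treatment protocol names it for all samples, and groups were therefore taken from the treatment label. Nothing in the labels ties the replicate libraries to separate mice or separate cultures. The p-values therefore reflect the variation among these 4 libraries alone, which may be technical.

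Mitochondria carry a small genome of their own, but nearly all of their proteins are encoded in the nucleus, made in the cytosol and imported through translocases of the outer membrane (TOM) and inner membrane (TIM). Coactivators of the PGC-1 family, working with the nuclear receptor ERRα and the factors NRF1 and GABP, switch on the nuclear genes that supply the organelle. Osteoclasts are rich in mitochondria, and in mouse osteoclasts the coactivator PGC-1β, encoded by Ppargc1b, is known to promote mitochondrial biogenesis as the cells form.

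Total counts were 39255925 and 37455168 in the BMS-582949 libraries and 35331889 and 36178333 in the DMSO libraries. The labelled cell type was checked on 10 osteoclast markers, of which all were detected in every library. Their summed level was 12156 and 12315 CPM (counts per 1000000 of a library's TMM-scaled total over tested genes) in the BMS-582949 libraries, against 99133 and 103354 CPM in the DMSO libraries, and all 10 were lower. The 10 macrophage markers summed to 2926 and 3111 CPM with BMS-582949 and 5737 and 5982 CPM with DMSO, with 5 called higher and 2 lower. The 8 proliferation markers, all higher, summed to 1514 and 1540 CPM with BMS-582949 and 527 and 514 CPM with DMSO. The 10 stromal markers summed to 677 and 674 CPM with BMS-582949 and 1009 and 936 CPM with DMSO, with 6 of 8 tested called lower. Neutrophil markers summed to 28.0 CPM or less, and Ly6g was at 0 in all libraries. Sums for the dendritic, B, T and NK, erythroid and mast cell lists were 33.8 CPM or less, with Siglech, Cd3e, Cd8a, Ncr1 and Mcpt4 at 0 throughout. Osteoclast, macrophage, proliferation and stromal marker levels differed between the same groups that every result below compares. Their part in those results was not tested. In such cultures, fewer osteoclasts and less RNA of a gene per cell cannot be told apart.

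With BMS-582949, 27 of the 41 genes were lower and 6 higher, and 8 were not called by edgeR's quasi-likelihood F-test at an adjusted p under 0.05, corrected over 13214 genes by the Benjamini-Hochberg method. Of all tested genes, 29.7% were called lower and 30.5% higher. The members' median log2 fold change was -0.41, against 0.03 over all tested genes. Lower by at least 2-fold were 5 of the 41, a share near the 11.3% of all tested genes. The groups did not overlap for 39 of the 41, against 80.2% of all tested genes. Counts of the 41 genes summed to 0.604% and 0.612% of the BMS-582949 library totals and to 0.678% of each DMSO library total. Exact (Clopper-Pearson) 95% intervals of these shares were 0.601 to 0.606%, 0.609 to 0.614%, 0.675 to 0.681% and 0.675 to 0.681% in the same order. Such a sum is weighted to abundant genes. The 4 porins and carriers alone made up 0.222% and 0.231% with BMS-582949, against 0.289% and 0.288% with DMSO. On these unscaled totals the 5 chaperone and prohibitin genes went the other way, with 0.142% and 0.138%, against 0.127% in each DMSO library. With TMM scaling 4 of the 5 were called lower and none higher. Summed, they stood at 1232 and 1224 TMM-scaled CPM with BMS-582949, against 1449 and 1451 with DMSO.

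How many members fell depends on scaling. The main scaling, TMM, sets libraries by the bulk of their genes. With library size as the only scaling, the typical tested gene stood at 0.41 rather than 0.03, and there were 15 members lower and 13 higher, where 17.0% of all tested genes were lower and 51.0% higher. With the trend on GC content and length removed, 24 members were lower and 5 higher, against 28.9% and 31.2% of all tested genes. The 21 members with the same call under both scalings were 15 lower and 6 higher. The lower ones were Ppargc1b, Esrra, Timm17a, Timm23, Timm44, Timm10, Mfn2, Fis1, Mff, Immt, Chchd3, Letm1, Vdac1, Slc25a4 and Slc25a5, and the higher ones were Nrf1, Gabpa, Tfb1m, Polg, Timm50 and Timm9. Of all tested genes, 17.0% were lower and 30.5% higher under both scalings. Library size only moved the typical gene upward, and all 4035 genes higher under TMM stayed higher. Agreement was thus bound to hold for the 6 higher members. Of the other members lower under TMM, 8 were no longer called with library size only: Tomm22, Tomm5, Tomm7, Timm13, Hspe1, Phb, Opa1 and Vdac2. The remaining 4, Tomm20, Tomm40, Hspa9 and Phb2, turned to a positive value, called higher for Tomm40 and Phb2. Changes below are relative to TMM, CPM values are TMM-scaled, and log2 fold changes are BMS-582949 over DMSO with a standard error (SE).

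**Figure D1:**
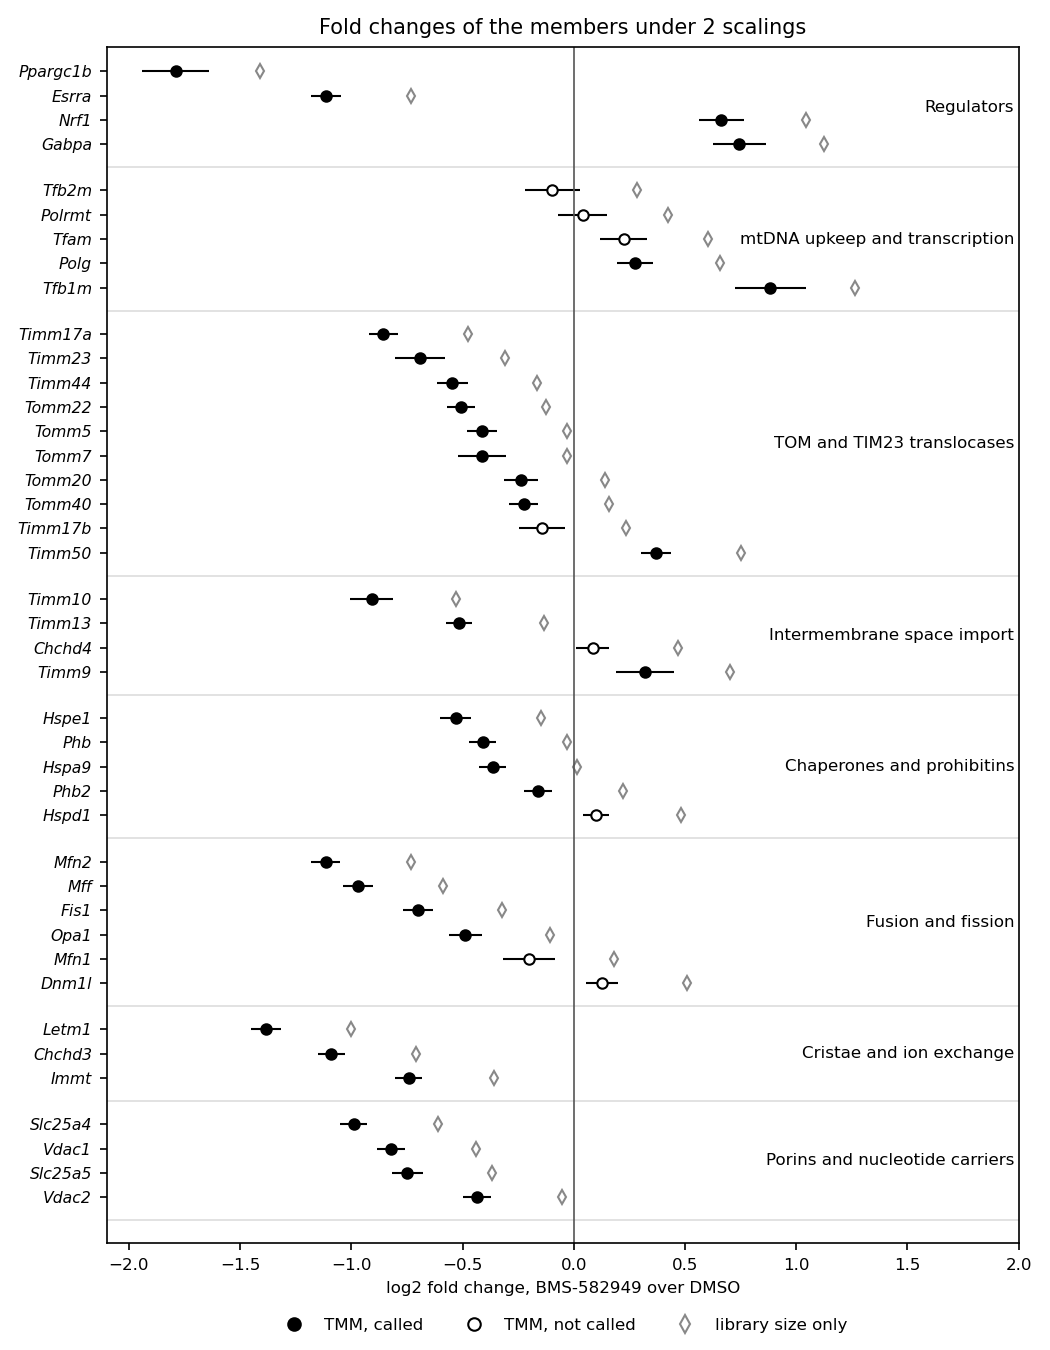
Log2 fold change of each member, BMS-582949 over DMSO, by role. Circles with bars are TMM estimates ± SE from 2 libraries each, filled where called at an adjusted p under 0.05, and diamonds are estimates with library size only. Ppargc1b at -1.79 is the lowest and Tfb1m at 0.88 the highest, and every diamond lies to the right of its circle.

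The regulators split. Ppargc1b (ENSMUSG00000033871, chromosome 18, 61298136 to 61400431 on GRCm38) encodes PGC-1β. It had 4.67 and 6.07 CPM in the BMS-582949 libraries, against 17.7 and 19.4 CPM in the DMSO libraries, a log2 fold change of -1.79 ± 0.15 (SE, n = 2 each, edgeR adjusted p = 5.7e-07). The groups did not overlap, and this was the largest change of any member. Esrra (ENSMUSG00000024955, chromosome 19, 6910977 to 6921813), the gene of ERRα, had 57.5 and 54.2 CPM with BMS-582949 and 118 and 123 CPM with DMSO (-1.11 ± 0.07, adjusted p = 2.5e-08). The receptor and its coactivator were thus both lower.

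Genes of the other nuclear factors were higher. Nrf1, which encodes nuclear respiratory factor 1, had 42.6 and 40.8 CPM with BMS-582949, against 27.3 and 25.4 CPM with DMSO (0.66 ± 0.10, adjusted p = 9.3e-05). Gabpa, the DNA-binding subunit of GABP, had 42.5 and 40.7 CPM with BMS-582949, against 27.7 and 21.96 CPM with DMSO (0.74 ± 0.12, adjusted p = 0.00017). For both genes the BMS-582949 libraries lay above the DMSO libraries. Exons of Gabpa overlap those of Atp5j, an ATP synthase gene on the opposite strand, over 6.98% of their length, and strand use in counting is not given in the sources used here. Atp5j, looked at because of that overlap, was lower at 92.9 ± 4.85 CPM with BMS-582949 and 173 ± 11.5 CPM with DMSO (SD, n = 2 each, log2 fold change -0.90). Ppargc1a, the coactivator that leads mitochondrial biogenesis in brown fat and muscle, was at 0 of 39255925 and 37455168 counts with BMS-582949 and 0 of 35331889 and 36178333 with DMSO. A count of 0 allows up to 0.0764 per 1000000 counts in the deepest library and 0.0849 in the shallowest, on unscaled totals and for counting error only.

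**Figure D2:**
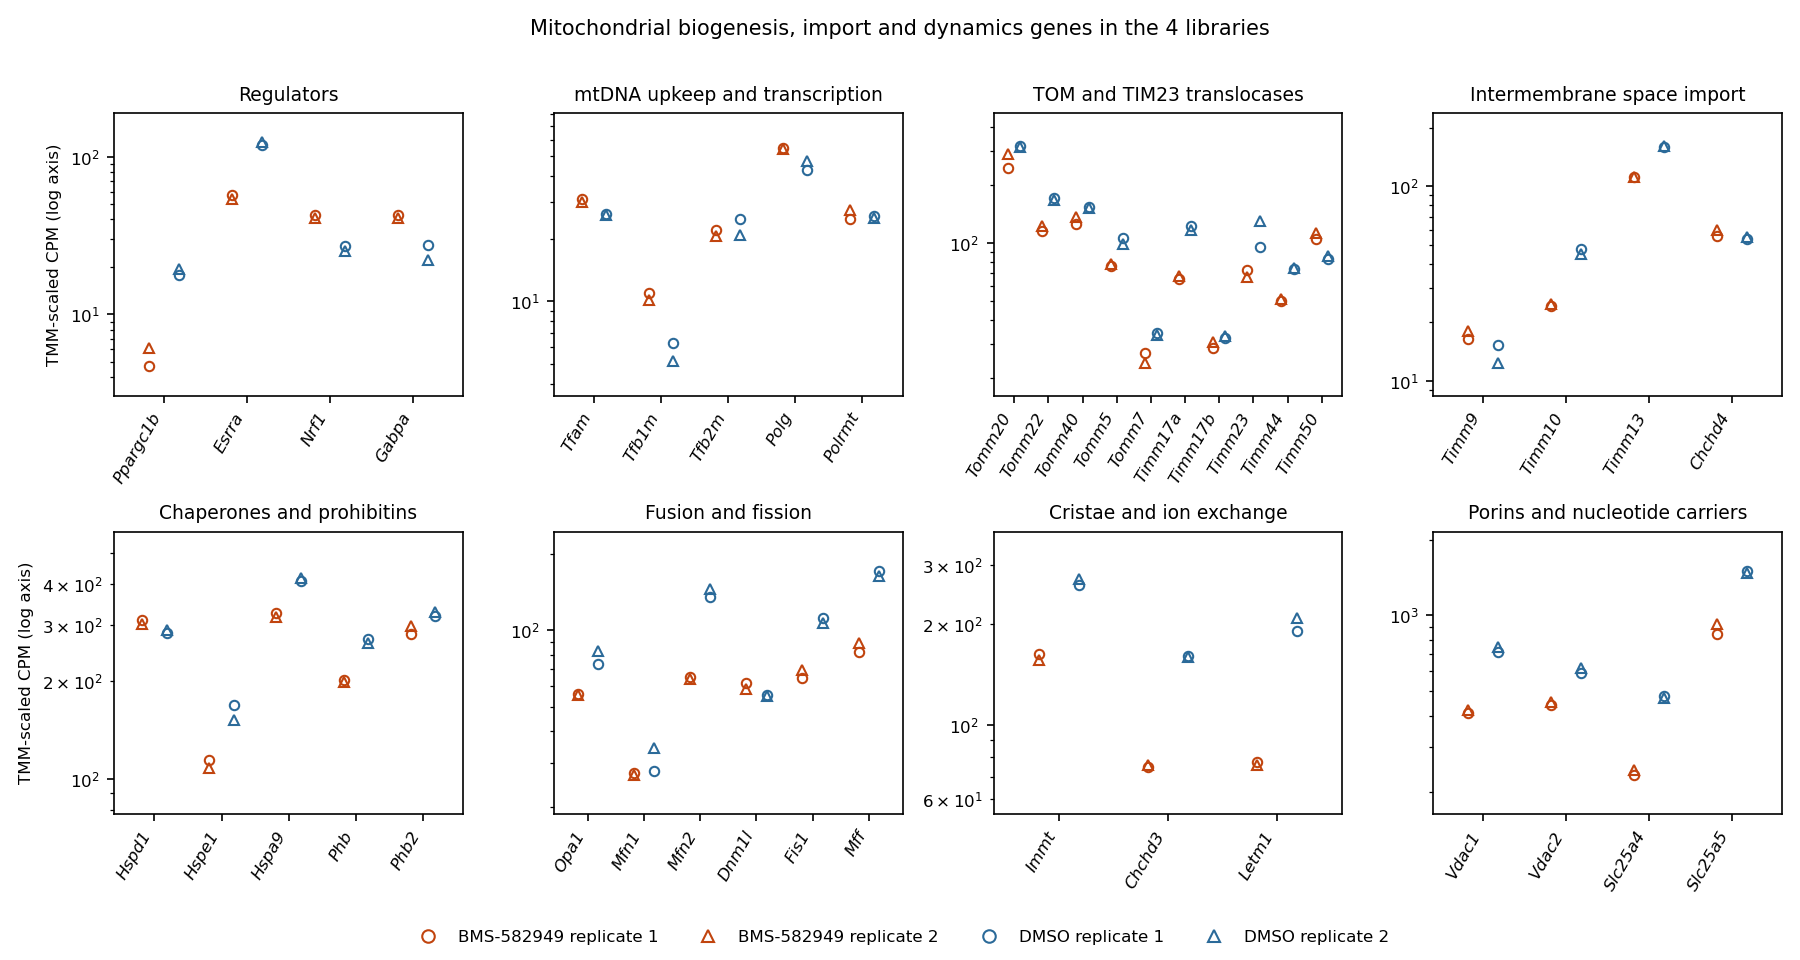
TMM-scaled CPM on a log axis for the 41 members, by role, in each BMS-582949 library (orange) and each DMSO library (blue), with circles for replicate 1 and triangles for replicate 2. Ppargc1b sits at 4.67 and 6.07 CPM with BMS-582949 and at 17.7 and 19.4 CPM with DMSO, whereas Tfb2m and Polrmt overlap between groups.

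Because these regulators bind known DNA motifs, the promoters of the members were read for them (RefSeq windows on GRCm38.p6, 250 bases before to 50 after each start). A window was found for 38 of the 42 genes, and Ppargc1b, Hspa9, Tomm7 and Vdac2 were not matched. The motifs, searched on both strands with overlapping matches counted separately, were CCGGAAG for GABP, TNAAGGTCA for ERR and the consensus of NRF1. The GABP motif was in the windows of 17 of 38 members (44.7%), against 9.93% of 27025 genes. These 27025 are all genes with a window, whether or not they were tested here, and a background of tested genes only was not taken. The NRF1 motif was in 7 of 38 (18.4%), against 5.19% of genes. The ERR motif was in none of the 38, against 1.43% of genes, which says only that these letters are not in these windows. Of the 17 members with the GABP motif 10 were lower and 2 higher (median -0.51), and of the 21 without it 13 were lower (median -0.41). These 21 include Ppargc1a, which was not tested and is not in that median. A match is a description of letters and shows no binding.

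The windows with 3 or more matches are shown 5′ to 3′ on the gene's strand, together with that of Hspe1. All of them hold matches for GABP, some also for NRF1, and none for ERR. Capitals mark a match to any of the 3 motifs. In the order printed they are Timm10 (chr2:84826771-84827070, plus strand), Tomm22 (chr15:79670618-79670917, plus), Phb2 (chr6:124712039-124712338, plus), Immt (chr6:71831070-71831369, plus), Polrmt (chr10:79746532-79746831, minus) and Hspe1 (chr1:55087898-55088197, plus).
Timm10: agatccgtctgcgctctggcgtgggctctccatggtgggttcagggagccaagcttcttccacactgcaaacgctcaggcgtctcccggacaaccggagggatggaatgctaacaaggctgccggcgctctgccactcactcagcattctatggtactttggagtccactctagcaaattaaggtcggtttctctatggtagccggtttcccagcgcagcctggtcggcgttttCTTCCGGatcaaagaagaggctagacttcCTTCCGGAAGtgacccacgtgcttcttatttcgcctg
Tomm22: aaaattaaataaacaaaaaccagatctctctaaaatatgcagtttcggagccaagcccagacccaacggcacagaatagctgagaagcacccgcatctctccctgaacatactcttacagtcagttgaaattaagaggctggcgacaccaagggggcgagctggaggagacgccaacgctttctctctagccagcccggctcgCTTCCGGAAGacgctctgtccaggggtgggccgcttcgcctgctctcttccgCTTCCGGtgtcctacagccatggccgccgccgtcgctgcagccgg
Phb2: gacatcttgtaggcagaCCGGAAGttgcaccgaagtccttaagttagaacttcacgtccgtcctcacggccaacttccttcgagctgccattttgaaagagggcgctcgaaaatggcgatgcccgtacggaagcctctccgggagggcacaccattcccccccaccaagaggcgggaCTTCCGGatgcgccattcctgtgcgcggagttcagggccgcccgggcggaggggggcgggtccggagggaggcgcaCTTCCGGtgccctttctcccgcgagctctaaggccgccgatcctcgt
Immt: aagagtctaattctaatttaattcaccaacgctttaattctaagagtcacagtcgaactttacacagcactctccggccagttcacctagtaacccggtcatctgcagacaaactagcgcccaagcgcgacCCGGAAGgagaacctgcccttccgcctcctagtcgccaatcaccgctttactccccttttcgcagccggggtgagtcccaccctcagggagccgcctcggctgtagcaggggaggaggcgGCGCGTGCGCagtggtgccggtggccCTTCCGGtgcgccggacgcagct
Polrmt: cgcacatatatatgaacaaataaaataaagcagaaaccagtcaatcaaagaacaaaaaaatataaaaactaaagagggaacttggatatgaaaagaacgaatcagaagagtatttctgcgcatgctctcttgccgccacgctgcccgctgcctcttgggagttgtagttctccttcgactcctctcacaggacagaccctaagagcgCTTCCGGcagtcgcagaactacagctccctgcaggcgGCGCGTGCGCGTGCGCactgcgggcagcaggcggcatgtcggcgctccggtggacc
Hspe1: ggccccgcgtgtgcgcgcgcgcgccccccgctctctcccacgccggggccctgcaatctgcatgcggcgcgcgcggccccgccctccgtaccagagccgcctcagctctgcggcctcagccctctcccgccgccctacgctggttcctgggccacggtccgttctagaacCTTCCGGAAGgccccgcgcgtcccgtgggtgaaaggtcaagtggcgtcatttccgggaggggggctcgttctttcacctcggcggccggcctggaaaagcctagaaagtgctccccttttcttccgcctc

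Timm10, Tomm22 and Phb2 hold 3 GABP matches each and no NRF1 match. All 3 genes were lower under TMM, as were 27 of the 41 members. With library size only Tomm22 was not called (-0.12) and Phb2 was called higher (0.22). In Timm10 and Tomm22 the pair of overlapping matches forms a palindrome. Immt holds 2 GABP matches and 1 NRF1 match and was lower, while Polrmt holds 2 overlapping NRF1 matches and 1 GABP match and was not called. The Hspe1 window shares 285 of its 300 bases with a window of Hspd1 on the opposite strand, and it holds 2 overlapping GABP matches.

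Of the 5 members grouped under mitochondrial DNA upkeep and transcription, 2 were higher, none was called lower and 3 were not called. The 40.0% higher stood against 30.5% of all tested genes, and the 0% lower against 29.7%. Tfb1m, which encodes a methyltransferase of mitochondrial ribosomal RNA, had 10.9 and 10.2 CPM with BMS-582949, against 6.31 and 5.13 CPM with DMSO (0.88 ± 0.16, adjusted p = 0.00044). Polg, the catalytic subunit of the mitochondrial DNA polymerase, had 54.9 and 53.9 CPM with BMS-582949 and 42.9 and 47.1 CPM with DMSO (0.27 ± 0.08, adjusted p = 0.010). Its call ended without DMSO replicate 1 (0.21, adjusted p = 0.084), and its exons overlap those of Fanci over 8.57% of their length.

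Tfam packages mitochondrial DNA and takes part in its transcription. It had 31.0 and 30.01 CPM with BMS-582949 and 26.3 and 26.0 CPM with DMSO, and the difference of 0.22 ± 0.10 missed the threshold (adjusted p = 0.082) although the groups did not overlap. It was called higher with library size only (0.61) and with upper-quartile scaling (0.28). Polrmt, the mitochondrial RNA polymerase, had 24.9 and 27.6 CPM with BMS-582949 and 25.7 and 25.3 CPM with DMSO (0.04 ± 0.11, adjusted p = 0.77), with overlapping groups, and was called higher with library size only (0.42, adjusted p = 0.0049). The transcription factor gene Tfb2m overlapped too, at 22.04 and 20.5 CPM with BMS-582949 and 24.8 and 20.7 CPM with DMSO.

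Transcripts of the mitochondrial genome itself were lower. All 13 mitochondrially encoded genes were called lower, with a median log2 fold change of -0.92 and values between -1.31 and -0.69, and all 13 were also lower with library size only. With the trend on GC content and length removed, 11 were called lower and none higher. Their share of all counts was 3.60% and 4.07% in the BMS-582949 libraries, against 6.52% and 5.85% in the DMSO libraries. The exact (Clopper-Pearson) 95% intervals were 3.60 to 3.61% and 4.06 to 4.07% with BMS-582949 and 6.51 to 6.53% and 5.84 to 5.86% with DMSO. An exact two-sided permutation test of 2 against 2 cannot go below its p of 0.333. The cytochrome oxidase gene mt-Co1 averaged 12647 ± 729 CPM with BMS-582949 and 31446 ± 2504 CPM with DMSO (SD, n = 2 each). The other named gene, mt-Co3, averaged 2810 ± 417 CPM with BMS-582949 and 6050 ± 209 CPM with DMSO.

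Of 10 members of the TOM and TIM23 translocases, the entry gates for most imported proteins, 8 were lower, 1 was higher and 1 was not called. Only Timm17a, Timm23 and Timm44 of these 8 were also lower with library size only. Timm17a, a channel subunit of TIM23, had 64.6 and 67.1 CPM with BMS-582949, against 122 and 117 CPM with DMSO (-0.86 ± 0.06, adjusted p = 2.0e-07). Its paralogue Timm17b had 28.4 and 30.5 CPM with BMS-582949 and 32.1 and 33.0 CPM with DMSO and was not called (-0.14 ± 0.10, adjusted p = 0.25).

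The remaining subunits of the inner gate differed among themselves. Timm23, the channel core, had 72.2 and 66.9 CPM with BMS-582949, against 95.2 and 129 CPM with DMSO (-0.69 ± 0.11), where the DMSO libraries stood well apart from each other. Timm44, which tethers the import motor to the channel, had 49.9 and 50.9 CPM with BMS-582949 and 73.4 and 73.7 CPM with DMSO (-0.55). Timm50, the receptor of the complex, went the other way with 105 and 113 CPM with BMS-582949, against 83.0 and 85.4 CPM with DMSO (0.37 ± 0.07, adjusted p = 0.00039).

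At the outer gate, the receptor gene Tomm22 (-0.51) and the small subunit genes Tomm5 and Tomm7 (both -0.41) were lower. Their values were -0.12, -0.03 and -0.03 with library size only, which ended all 3 calls. The channel gene Tomm40 averaged 131 ± 8.12 CPM with BMS-582949 and 153 ± 1.64 CPM with DMSO (-0.22), and the receptor gene Tomm20 averaged 267 ± 30.9 and 315 ± 3.65 CPM in those groups (-0.24). Without BMS-582949 replicate 1 their calls ended, with values of -0.17 for Tomm40 and -0.13 for Tomm20 (adjusted p = 0.089 and 0.19). Calls of Tomm5, Tomm7 and Tomm40 also ended with the GC and length trend removed, at -0.13, -0.18 and -0.11. That of Tomm20 also ended with upper-quartile scaling (-0.18, adjusted p = 0.064).

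Small chaperones of the intermembrane space, which escort carrier proteins to the inner membrane, did not move together. Timm10 had 24.2 and 24.9 CPM with BMS-582949, against 47.5 and 44.7 CPM with DMSO (-0.91 ± 0.10, adjusted p = 4.4e-06), and Timm13 was lower by less (-0.52). Timm9, whose protein forms a complex with that of Timm10, had 16.5 and 18.1 CPM with BMS-582949 and 15.2 and 12.4 CPM with DMSO (0.32 ± 0.13, adjusted p = 0.049). That call ended without BMS-582949 replicate 2 (0.23, adjusted p = 0.28) and without DMSO replicate 2 (0.18, adjusted p = 0.32). It ended in 7 of 15 alternative fits, the others being DESeq2 (adjusted p = 0.13), its size factors (0.068), a filter of 1 CPM (0.052), leaving out the mitochondrially encoded genes (0.051) and removing the GC and length trend (0.16). Chchd4, the import receptor that forms disulfide bonds in this space, averaged 57.7 ± 3.00 CPM with BMS-582949 and 54.4 ± 1.21 CPM with DMSO and was not called, but was called higher with library size only (0.47).

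Chaperones of the matrix were mostly lower by little under TMM. With library size only, 0 of the 5 chaperone and prohibitin members were called lower and 2 were called higher. Under that scaling 17.0% of all tested genes were lower and 51.0% higher. Hspe1, which encodes the co-chaperonin HSP10, had 114 and 108 CPM with BMS-582949, against 169 and 152 CPM with DMSO (-0.53 ± 0.07, adjusted p = 2.8e-05). With library size only it was at -0.15 without a call. Hspd1 encodes its chaperonin partner HSP60 and is transcribed in the opposite direction from the shared promoter printed above. It had 309 and 302 CPM with BMS-582949 and 282 and 289 CPM with DMSO (0.10 ± 0.06, adjusted p = 0.17), so its groups did not overlap but it missed the threshold. It was called higher with upper-quartile scaling (0.16, adjusted p = 0.033) and with library size only (0.48, adjusted p = 2.0e-05). Exons of the 2 genes overlap over 7.60% of the length of Hspe1 and 4.24% of that of Hspd1. Hspa9, the mitochondrial HSP70 of the import motor, had 326 and 317 CPM with BMS-582949, against 410 and 418 CPM with DMSO (-0.37 ± 0.06), and 0.02 with library size only. Prohibitin genes, whose products form ring scaffolds in the inner membrane, were lower for Phb (-0.41) and Phb2 (-0.16, adjusted p = 0.039). The Phb2 call ended in 7 of 15 alternative fits. These were without BMS-582949 replicate 1 (-0.12), DMSO replicate 1 (-0.18) or DMSO replicate 2 (-0.14), and with a replicate block (-0.16, adjusted p = 0.070). The others were upper-quartile scaling (-0.10, adjusted p = 0.17), no low-count filter (-0.14, adjusted p = 0.075) and removal of the GC and length trend (-0.06, adjusted p = 0.35). With library size only Phb was at -0.03 without a call and Phb2 was called higher (0.22).

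Among fusion and fission genes 4 of 6 were lower and 2 were not called. Mfn2, which encodes an outer membrane fusion GTPase that also tethers mitochondria to the endoplasmic reticulum, had 65.3 and 64.3 CPM with BMS-582949, against 135 and 146 CPM with DMSO (-1.12 ± 0.07, adjusted p = 2.2e-08). Its paralogue Mfn1 had 27.3 and 26.8 CPM with BMS-582949 and 28.0 and 34.2 CPM with DMSO (-0.20 ± 0.12, adjusted p = 0.16), so that 1 DMSO library lay near the BMS-582949 libraries. It was -0.34 without DMSO replicate 1 (adjusted p = 0.047) and -0.047 without DMSO replicate 2 (adjusted p = 0.82), and it was called lower with the GC and length trend removed (-0.31, adjusted p = 0.039). Opa1, which fuses the inner membrane, had 56.0 and 55.6 CPM with BMS-582949 and 73.6 and 82.9 CPM with DMSO (-0.49 ± 0.08), and -0.11 without a call with library size only.

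On the fission side, the adaptor genes were lower and the GTPase gene was not called. Mff averaged 85.6 ± 4.94 CPM with BMS-582949 and 167 ± 5.09 CPM with DMSO (-0.97), and Fis1 67.2 ± 3.21 and 109 ± 3.48 CPM in those groups (-0.70). Dnm1l, the gene of the dynamin-like GTPase DRP1 that Mff recruits to mitochondria, had 62.2 and 58.5 CPM with BMS-582949 and 55.4 and 55.2 CPM with DMSO (0.13 ± 0.07, adjusted p = 0.15). It was called higher with library size only (0.51) and with upper-quartile scaling (0.19).

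The cristae and ion exchange genes were all lower under both scalings. Letm1, which encodes an inner membrane protein of cation exchange, had 77.4 and 75.9 CPM with BMS-582949, against 191 and 209 CPM with DMSO (-1.38 ± 0.07, adjusted p = 3.6e-09). Chchd3 and Immt encode subunits of MICOS, the complex that holds cristae junctions open. Chchd3 had 74.9 and 75.6 CPM with BMS-582949 and 161 and 160 CPM with DMSO (-1.09 ± 0.06), and Immt 163 and 157 CPM with BMS-582949 and 263 and 273 CPM with DMSO (-0.74 ± 0.06).

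Porins and adenine nucleotide carriers, through which metabolites and ATP leave the organelle, were all lower. Slc25a4, which encodes the nucleotide carrier ANT1 typical of heart and muscle, had 232 and 245 CPM with BMS-582949, against 478 and 468 CPM with DMSO (-0.99 ± 0.06, adjusted p = 3.4e-08). Slc25a5, the gene of the carrier ANT2 of dividing cells, had 846 and 921 CPM with BMS-582949 and 1502 and 1467 CPM with DMSO (-0.75 ± 0.07). Vdac1 had 409 and 421 CPM with BMS-582949, against 715 and 752 CPM with DMSO (-0.82 ± 0.06). Vdac2 had 441 and 455 CPM with BMS-582949 and 593 and 618 CPM with DMSO (-0.43 ± 0.06), and -0.05 without a call with library size only. Several of these abundant genes, Slc25a5 and Hspe1 among them, have processed pseudogenes, and how reads shared with such copies were counted is not given in the sources used here.

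Per kilobase of exon, Slc25a5 had the highest level of the members, at 537 CPM per kilobase with BMS-582949 and 902 with DMSO. Vdac1 was next in both groups, at 158 and 280 CPM per kilobase. Hspd1 ranked 3 with BMS-582949 (116 CPM per kilobase) and 8 with DMSO (108). Slc25a4 ranked 4 with BMS-582949 (101) and 3 with DMSO (201). At the low end stood Ppargc1b, ranked 41 with BMS-582949 (1.35) and 36 with DMSO (4.65), and Tfb1m, ranked 40 and 41 (2.92 and 1.58). Exon length is that of all annotated exons joined, so genes with rarely used exons are set too low.

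Ratios of 2 genes within a library do not depend on how libraries are scaled, and they set each pair side by side. Mfn2 over Mfn1, as counts per exon length, was 2.82 and 2.82 in the BMS-582949 libraries, against 5.68 and 5.02 in the DMSO libraries, a log2 difference of -0.92 with a replicate SD of 0.09. Timm17a over Timm17b was 0.737 and 0.713 with BMS-582949, against 1.23 and 1.14 with DMSO (-0.71, SD 0.06). Where a ratio stands relative to 1 depends on the joined exon length, and in CPM Timm17a was above Timm17b in all libraries. Vdac1 over Vdac2 was 1.69 and 1.68 with BMS-582949 and 2.20 and 2.22 with DMSO (-0.39, SD 0.01).

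The other paralogue ratios moved less. Slc25a4 over Slc25a5 was 0.192 and 0.186 with BMS-582949 and 0.223 and 0.223 with DMSO (-0.24, SD 0.02), and Phb over Phb2 was 0.954 and 0.889 with BMS-582949 and 1.13 and 1.06 with DMSO (-0.25, SD 0.07). The pairs of overlapping genes on opposite strands were added after their values were seen. Hspe1 over Hspd1 was 0.662 and 0.640 with BMS-582949, against 1.07 and 0.942 with DMSO (-0.63, SD 0.10). Gabpa over Atp5j was 0.261 and 0.233 with BMS-582949, against 0.0843 and 0.0733 with DMSO (1.65, SD 0.13). In all 7 pairs the groups did not overlap, and the exact two-sided permutation p of 0.333 is the smallest that 2 against 2 allow.

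**Figure D3:**
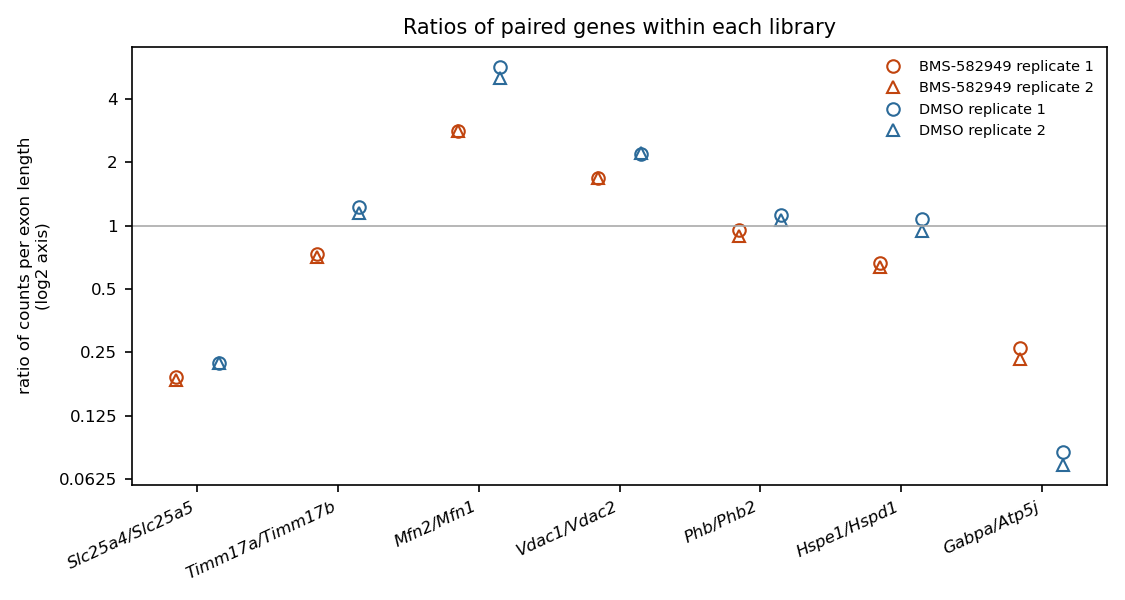
Ratio of counts per exon length of 7 gene pairs in each BMS-582949 library (orange) and each DMSO library (blue), on a log2 axis, with circles for replicate 1 and triangles for replicate 2. Mfn2 over Mfn1 is at 2.82 in both BMS-582949 libraries and at 5.68 and 5.02 in the DMSO libraries. In the order written, which sets the direction, only Gabpa over Atp5j is higher with BMS-582949.

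A wider list of 118 genes of the same processes, of which 114 were tested, had 64 lower and 20 higher (56.1% and 17.5%), with a median of -0.42, against 29.7% lower and 30.5% higher of all tested genes. With library size only 42 were lower and 40 higher, against 17.0% and 51.0% of all tested genes. Further import genes had 17 lower and 1 higher of 25 (median -0.49). Among them Pam16, a regulator of the import motor, averaged 18.4 ± 0.620 CPM with BMS-582949 and 33.0 ± 1.79 CPM with DMSO, and Gfer, the sulfhydryl oxidase partner of Chchd4, was higher (0.42). Tomm6 also fell within the naming rule (-0.79), but its BMS-582949 libraries differed widely (41.9 ± 21.1 CPM, against 72.4 ± 1.60 CPM with DMSO) and 84.2% of its exon length overlaps another gene.

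Further dynamics and cristae genes had 15 lower and 1 higher of 19 (median -0.67). Chchd10, which encodes an intermembrane space protein linked to cristae, averaged 42.4 ± 2.71 CPM with BMS-582949 and 245 ± 7.15 CPM with DMSO (-2.53), and Apoo, a MICOS subunit gene, changed by -1.43. Mtfr2, a fission regulator gene, was higher at 19.9 ± 2.36 CPM with BMS-582949 and 6.50 ± 0.995 CPM with DMSO (1.61). Of 6 mitophagy genes 5 were lower, among them Pink1 (-1.41), whose kinase marks damaged mitochondria, and Bnip3 (-1.69), whose exons overlap another gene over 22.3% of their length. Further chaperones and proteases had 8 lower and 1 higher of 12, with Dnaja3 at -0.79, Spg7 at -0.64 and Parl at 0.39.

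Further regulators went mostly the other way, with 10 higher and 3 lower of 14 (median 0.48). Creb1, a factor known to activate Ppargc1a in liver, averaged 37.9 ± 0.608 CPM with BMS-582949 and 16.6 ± 2.09 CPM with DMSO (1.19), and Gabpb2, a partner subunit of Gabpa, rose too (0.86). Perm1, a regulator known from mouse muscle as a target of PGC-1 and ERR, averaged 3.54 ± 0.0917 CPM with BMS-582949, against 25.6 ± 1.49 CPM with DMSO (-2.85), and the mitochondrial deacetylase gene Sirt3 changed by -1.63. Exons of Sirt3, Chchd10 and Pam16 overlap other genes over 12.7%, 11.4% and 18.7% of their length. Further mitochondrial DNA genes had 5 lower and 1 higher of 17 (median -0.08), and the 29.4% lower was near the 29.7% of all tested genes. They included the nucleoside kinase genes Tk2 at -0.65 and Dguok at -0.47. Further carriers had 11 lower and 6 higher of 21, and the 28.6% higher was near the 30.5% of all tested genes. The pyruvate carrier gene Mpc2 averaged 42.01 ± 0.914 CPM with BMS-582949 and 152 ± 11.3 CPM with DMSO (-1.85), and Slc25a39, a carrier linked to glutathione import, changed by -1.32. Slc25a37, which encodes the iron importer mitoferrin, was higher at 28.1 ± 0.725 CPM with BMS-582949 and 10.4 ± 0.928 CPM with DMSO (1.43), and Slc25a10 at 0.41.

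Lists of mitochondrial energy metabolism were lower throughout. The 28 nuclear-encoded respiratory chain genes were all lower, between -1.73 and -0.87 (median -1.13), and the 12 genes of the TCA cycle were all lower (median -1.0). Examples were Ndufa1 of complex I at -1.73, Sdhb of complex II at -1.59, and the malate dehydrogenase gene Mdh2 at -1.65. The members ran from -1.79 to 0.88. Of 26 mitochondrial ribosome genes 17 were lower, among them Mrps35 at -1.21, and 1 higher (median -0.37), against 27 lower and 6 higher of 41 members (median -0.41). With library size only, 8 of the 26 mitochondrial ribosome genes were lower and 8 higher (median 0.01), against 17.0% and 51.0% of all tested genes (median 0.41). All 28 respiratory chain genes and 10 of the 12 TCA cycle genes stayed lower under that scaling. Differences between lists were not tested.

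**Figure D4:**
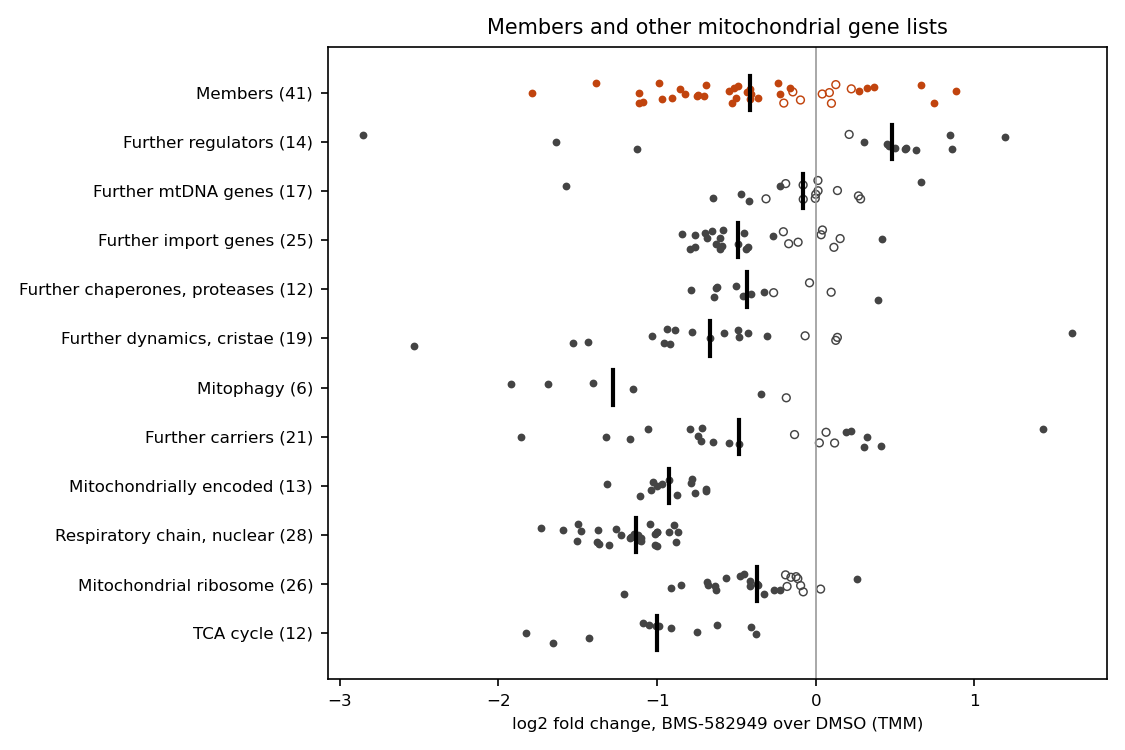
Log2 fold change, BMS-582949 over DMSO with TMM scaling, of the 41 members (orange, top) and of each other list, with the number of tested genes in brackets. Points are genes, filled where called, and bars are medians, which are -0.41 for the members, -1.13 for the nuclear-encoded respiratory chain and 0.48 for further regulators.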

How the data were processed

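The authors deposited raw counts per gene model, since values are whole and library totals differ. Per the submitters' processing notes, Trimmomatic 0.36, HISAT2 2.0.4 and DESeq2 1.30.1 were used with GRCm38. Their counter, annotation and strand setting: not given in the sources used here. Symbols, positions and exon lengths came from GENCODE M21 (22022 of 22036 Ensembl identifiers), and promoters from RefSeq (GRCm38.p6). Testing used edgeR 4.0.16 (R 4.3.3): filterByExpr (minimum count 10), TMM, glmQLFit and glmQLFTest without covariates, and Benjamini-Hochberg adjustment. The fit was tested on simulated data with 200 changed genes and equal group means for the rest. The real data had 3919 genes lower and 4035 higher, so that simulation cannot judge the choice of scaling. Replicates were not the same library (chi-square over degrees of freedom 14.3 for BMS-582949, 10.0 for DMSO). Counting intervals and floors cover counting error only.

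Alternatives were other scalings and filters, DESeq2 1.42.0, limma-voom 3.58.1, other thresholds, a replicate block, no mitochondrially encoded genes and each library left out. Added after seeing the data were removal of GC and length trends (loess, span 0.3) and of NewGene models. Members and lists were chosen with earlier results of these data known. Any member may be named. All libraries are given for the strongest called change per role and direction and for 17 fixed genes, and each further list adds up to 2 called genes per direction at a mean of at least 10 CPM.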

Additional observations from a re-analysis of the deposited data

How the results depend on the processing

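Of the 33 called members, 19 kept direction and call in all 15 fits, and 29 kept direction. With library size only, 15 members were lower and 13 higher, their median was -0.032, the wider list had 42 lower and 40 higher, and all genes had 2240 lower and 6738 higher. That scaling turned Tfb2m (0.28), Tomm20 (0.14), Tomm40 (0.16), Timm17b (0.24), Hspa9 (0.016), Phb2 (0.22) and Mfn1 (0.18). It differs from TMM only in library scaling, which moved the median of all genes from 0.03 to 0.41. An absolute log2 fold change of at least 1 left 5 members lower and 0 higher, 16 and 3 of the wider list, and 1499 and 1314 of all genes. With the GC and length trend removed the median was -0.35, and Chchd4 (-0.0097) and Dnm1l (-0.031) turned. The cause was not tested. Left-out libraries moved Tfb2m between -0.22 and 0.040, positive without DMSO replicate 1, and Polrmt between -0.054 and 0.11, negative without BMS-582949 replicate 2. Neither was called.

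The members' median of -0.41 was -0.44 with DESeq2 size factors and with DESeq2, -0.35 with upper-quartile scaling, -0.40 without a filter, -0.43 at 1 CPM in 2 libraries and -0.42 without NewGene models. Leaving out each library in turn gave -0.45 to -0.39, with 24 to 27 members lower and 5 or 6 higher. It gave 3509 to 3903 genes lower and 3615 to 3711 higher among all tested, 60 to 65 and 15 to 17 of the wider list, and a difference in the mitochondrially encoded share of -2.69 to -2.01 percentage points.

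Replicate numbers gave no shared source for pairing (correlation of deviations -0.08). With a replicate block 26 members were lower and 6 higher, and all genes had 3830 lower and 3923 higher. Depth limits Ppargc1a, and 2 libraries per group limit small changes such as Phb2 and Timm9.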
